A study of Mus musculus with 36 samples.

Results

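The genes described here are those of mouse lung whose array symbol has the form Clec, a number, a letter and an optional number, the systematic names given to C-type lectins and their relatives. The array's annotation held 26 such genes, of 18193 genes with an unambiguous symbol, and each was read from its brightest probe set on average over the 36 arrays. Of the 26 members, 17 exceeded log2 5 on at least 3 arrays and were tested together with 11599 genes in all. The other 9 did not pass that filter on low values. The name describes ancestry rather than function. Clec3b, Clec11a and Clec18a encode secreted proteins, and Clec16a encodes an intracellular protein of endosomes that is not a surface receptor.

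C-type lectin receptors carry a fold related to the calcium-dependent sugar-binding domain and sit mainly on macrophages, monocytes, neutrophils and dendritic cells. Activating members such as Dectin-1 (Clec7a), Dectin-2 (Clec4n) and Mincle (Clec4e) recognise fungal and mycobacterial sugars, glycolipids or products of dying cells, and signal through the kinase Syk, either directly or through the adaptor FcRγ (Fcer1g). Inhibitory members such as DCIR (Clec4a2) carry an immunoreceptor tyrosine-based inhibitory motif that recruits phosphatases. In the lung these receptors are known for antifungal defence and for allergic responses to mite and mould glycans.

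Lung RNA came from 36 female mice on a C57BL/6 background, 1 Affymetrix array per mouse, in 5 kinds of mice that were either exposed to ovalbumin (OVA) or to phosphate-buffered saline (PBS). On days 1, 4 and 7 the OVA mice received an intraperitoneal injection of 50 µg OVA in 0.1 ml PBS. From day 12 they were given 20 µg OVA in 30 µl PBS into the nose each week for 9 weeks, and PBS mice had PBS on that schedule. WT mice were C57BL/6 wild type without engraftment. KitWsh mice carried the sash allele (KitW-sh/W-sh), an inversion upstream of Kit that deprives adult mice of mast cells and is known to alter other blood lineages. KitWsh_MC, KitWsh_MCifngR and KitWsh_MCigeR mice were KitWsh mice with the engraftment labels MC, MCifngR and MCigeR, codes that the sources used here do not spell out. For KitWsh_MCigeR mice the genotype is labelled KitWsh/FcεRIγ-/-. There were 4 arrays in WT PBS and in all 5 OVA groups, and 3 in the remaining PBS groups. Nothing in the labels ties mice to litters or cages, so the p-values measure the spread between these mice. Values are deposited log2 intensities, so a difference of 1 is a 2-fold difference.

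The tissue label matched its markers: the 11 lung epithelial genes measured averaged 10.62 to 13.66 on every array. KitWsh_MCigeR PBS array 2 stood apart, with a median correlation to the other arrays of 0.543 against 0.882 to 0.971 for the other 35. Its 3′ minus 5′ difference of the beta-actin control, which rises with RNA degradation, was 8.43 against 1.17 to 6.23. Results are therefore given with all 36 arrays and without it. The 3′ minus 5′ difference of the Gapdh control did not set this array apart. That difference was 3.66 there, against 7.51 on KitWsh_MCifngR OVA array 1, 6.77 on KitWsh_MC OVA array 2 and 5.69 on KitWsh_MCifngR OVA array 4. A further 3 arrays went against their labels. The Y-linked gene Eif2s3y read 9.07 on WT OVA array 4, 9.81 on KitWsh_MCifngR OVA array 2 and 9.25 on KitWsh_MCifngR OVA array 3, and at most 3.60 on the rest. Kit read 6.90 on WT OVA array 4 and 9.86 to 10.97 on the other WT arrays. Counts without all 4 of these doubted arrays are given with each kind of mice.

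Several receptors of myeloid cells rose under OVA. Over the 5 kinds of mice, weighted equally, the mean OVA minus PBS difference was called higher for 8 of 17 members and lower for 1, a call being an adjusted p under 0.05 from limma with Benjamini-Hochberg adjustment over all 11599 genes. Over all genes tested, 16.6% were called, 8.79% higher and 7.8% lower. Clec4n, the mannan receptor Dectin-2, rose 4.05-fold (log2 2.02 ± 0.36 SE, adjusted p = 0.000435) and the β-glucan receptor Clec7a rose 2.33-fold (1.22 ± 0.22, adjusted p = 0.000392). Without the array that stood apart, 11 of 17 members were called, 8 higher and 3 lower, against 27.5% of all genes, 12.2% higher and 15.3% lower. The median difference of the 17 members was 0.13 with all arrays, against 0.06 over all genes tested, and 12 of the 17 lay above 0.

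Of the 6 activating receptors tested, 5 rose. Beside Clec4n and Clec7a these were Clec4e, the glycolipid receptor Mincle (adjusted p = 0.000926), Clec4d, its heterodimer partner MCL (1.01 ± 0.26 SE, adjusted p = 0.00729), and Clec5a, the DAP12-coupled receptor MDL-1 (adjusted p = 0.0184). The PBS values of Clec4e and Clec5a lay under log2 5 on every array, the level taken as detected, so their fitted differences have no exact size. Both genes passed the filter through OVA arrays alone, 10 for Clec4e and 5 for Clec5a. The filter thus favoured a rise for them, here and in the other counts of members that include them. Clec1b, the podoplanin receptor CLEC-2 of platelets, had a difference of -0.09 ± 0.17 and was not called. Among the inhibitory receptors and their relatives, Clec4a2 (DCIR) rose by 0.88 ± 0.14 (adjusted p = 0.000193) and Clec4a3, a DCIR relative, by 1.03 ± 0.17 (adjusted p = 0.000165). Clec12b, an inhibitory receptor of myeloid cells, had a difference of -0.37 and was not called. The calls of Clec4n, Clec7a, Clec4e, Clec4d, Clec5a, Clec4a2 and Clec4a3 held under each alternative that could be run on them and when any 1 of the 36 arrays was left out.

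**Figure D1:**
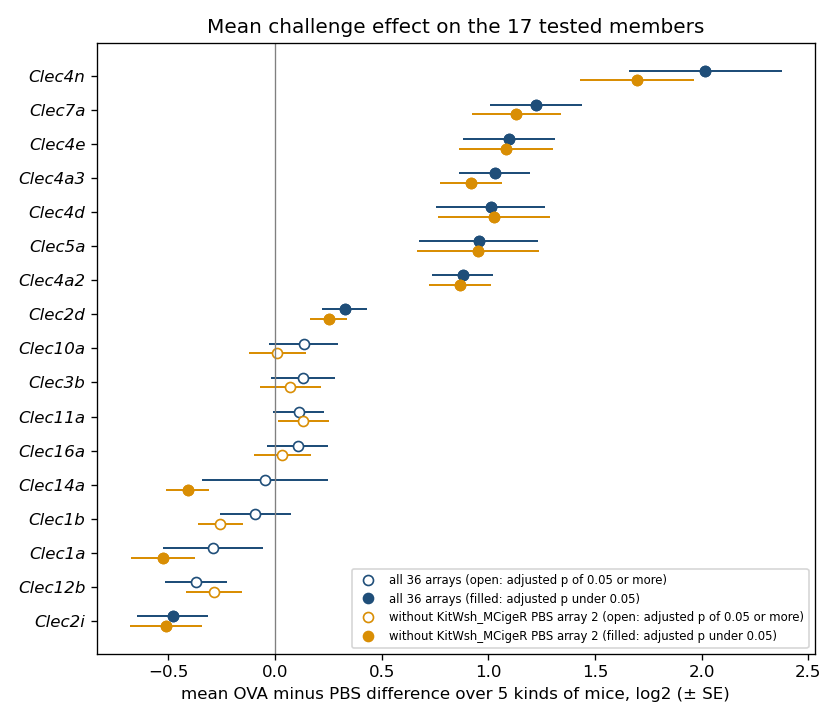
Mean OVA minus PBS difference over the 5 kinds of mice (x axis, log2, with its standard error) for the 17 tested members, from all 36 arrays and without KitWsh_MCigeR PBS array 2; filled points had an adjusted p under 0.05. The 7 points at the top lie between 0.88 and 2.02 with all arrays, those of Clec4e and Clec5a against PBS values under log2 5, and the estimates of Clec14a and Clec1a are the ones whose call differs most between the settings.

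Several of the genes that rose lie close together on chromosome 6. In RefSeq's gene order Clec4a3, Clec4b1, Clec4a2, Clec4n, Clec4d and Clec4e follow each other with at most 1 other protein-coding gene between neighbours, and 5 of these 6 rose in the mean over kinds. The exception, Clec4b1, did not pass the filter, with at most 5.07 on any array. Clec7a lies farther along the same chromosome beside Clec1a, Clec1b and Clec12b, none of which was called higher. RefSeq promoter windows of 300 bases (GRCm38.p6) were listed for 22 of the 26 members, Clec4n not among them. They were searched on both strands for a PU.1 core (GAGGAAG), a C/EBP site (TTGCNNAA) and an AP-1 site (TGANTCA), since these factors are known regulators of myeloid genes, and the 3 patterns do not contain each other. Of all 32851 windows in the table, 13.6% held the first, 10.8% the second and 7.81% the third. Among the 6 rising myeloid receptors with a window, Clec4d and Clec5a held the PU.1 core, Clec4e the C/EBP site and Clec4a2 the AP-1 site, while Clec4a3 and Clec7a held none. The 4 windows with a match are shown so that the rising receptors can be compared at sequence level, 5′ to 3′ on the gene's strand, with the matches in capitals.
Clec4d (chr6:123261857-123262156, plus strand): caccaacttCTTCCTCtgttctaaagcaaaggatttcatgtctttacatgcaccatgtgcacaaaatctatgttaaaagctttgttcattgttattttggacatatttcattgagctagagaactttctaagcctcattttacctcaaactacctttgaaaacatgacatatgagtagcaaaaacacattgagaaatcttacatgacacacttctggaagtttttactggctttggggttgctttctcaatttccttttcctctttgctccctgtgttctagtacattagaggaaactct
Clec4e (chr6:123289822-123290121, minus strand): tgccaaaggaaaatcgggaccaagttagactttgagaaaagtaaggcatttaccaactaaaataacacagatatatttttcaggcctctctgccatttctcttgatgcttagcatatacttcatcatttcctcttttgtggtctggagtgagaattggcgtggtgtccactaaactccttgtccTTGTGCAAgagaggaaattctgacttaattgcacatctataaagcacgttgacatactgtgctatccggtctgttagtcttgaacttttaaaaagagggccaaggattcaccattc
Clec5a (chr6:40585756-40586055, minus strand): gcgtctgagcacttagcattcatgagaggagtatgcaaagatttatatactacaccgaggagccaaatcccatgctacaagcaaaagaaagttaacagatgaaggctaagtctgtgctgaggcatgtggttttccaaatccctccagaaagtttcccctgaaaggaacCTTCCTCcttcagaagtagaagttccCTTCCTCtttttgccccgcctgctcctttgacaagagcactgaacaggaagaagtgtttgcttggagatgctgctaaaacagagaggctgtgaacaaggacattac
Clec4a2 (chr6:123122440-123122739, plus strand): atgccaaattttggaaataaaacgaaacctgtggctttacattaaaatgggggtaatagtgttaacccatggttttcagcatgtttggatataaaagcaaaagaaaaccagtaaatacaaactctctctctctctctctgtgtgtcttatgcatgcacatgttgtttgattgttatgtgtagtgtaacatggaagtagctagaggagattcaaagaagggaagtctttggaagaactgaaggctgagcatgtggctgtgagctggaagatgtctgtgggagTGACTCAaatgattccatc
The match in Clec4d begins 241 bases before the annotated start and that in Clec4e 66 bases before it. The pair in Clec5a begin 82 and 56 bases before the start, and the match in Clec4a2 lies 31 bases after it. Of all 22 members with a window, 5 held the PU.1 core, 4 the C/EBP site and 5 the AP-1 site, members that did not pass the filter included. A match describes the letters of the window and was not tested as a binding site.

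Among the 17 tested members Clec4n had the largest mean difference over kinds. In WT mice it read 7.45, 7.73, 6.90 and 6.96 with PBS and 10.26, 9.71, 9.31 and 7.19 with OVA. KitWsh PBS mice read 5.99, 6.45 and 4.18, and KitWsh OVA mice read 7.68, 8.26, 6.11 and 8.56. The groups overlapped in both kinds through a single low OVA array each, in WT the doubted array 4. In KitWsh_MC mice the PBS arrays read 6.39, 5.87 and 5.87 and the OVA arrays 9.41, 9.11, 9.27 and 9.54. These groups were far apart, a 9.79-fold difference. KitWsh_MCifngR mice read 4.94, 5.67 and 6.60 with PBS and 6.43, 6.75, 6.45 and 7.73 with OVA. KitWsh_MCigeR mice read 8.46, 2.77 and 6.74 with PBS and 8.30, 7.57, 7.28 and 7.73 with OVA, the 2.77 being the array that stood apart. A second probe set of Clec4n also lay higher with OVA in all 5 kinds, by 0.61 to 3.87. The probe sets used for Clec4n and Clec4d carry the suffix for probes shared between transcripts, so signal from close relatives cannot be told apart there.

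Clec4d was high with OVA in 2 kinds of engrafted mice. KitWsh_MC mice read 8.02, 7.20 and 7.51 with PBS and 9.62, 9.60, 9.95 and 9.82 with OVA. KitWsh_MCifngR mice read 7.09, 7.73 and 7.47 with PBS and 8.07, 10.15, 9.29 and 9.52 with OVA. Neither pair of groups overlapped, though the 10.15 and 9.29 came from the doubted KitWsh_MCifngR OVA arrays 2 and 3. In WT mice the PBS arrays read 7.00, 6.73, 7.67 and 7.53 and the OVA arrays 9.71, 8.94, 7.91 and 6.17. The 6.17 was the doubted array 4, and the other WT OVA arrays lay above every WT PBS array. KitWsh mice read 7.14, 7.79 and 5.43 with PBS and 7.54, 7.13, 5.73 and 7.51 with OVA. KitWsh_MCigeR mice read 8.16, 8.00 and 7.42 with PBS and 8.17, 7.22, 7.81 and 7.92 with OVA. In the last 2 kinds the groups lay on top of each other, with differences of 0.19 and -0.08.

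Clec4e stayed below log2 5 on every PBS array. It read 3.95, 2.32 and 3.19 in KitWsh_MC PBS mice and 5.78, 4.84, 5.57 and 5.85 in KitWsh_MC OVA mice. KitWsh_MCifngR mice read 3.97, 4.16 and 4.32 with PBS and 4.69, 6.38, 5.56 and 6.53 with OVA. KitWsh mice read 3.68, 3.67 and 3.82 with PBS and 4.57, 5.55, 4.53 and 5.34 with OVA. In these 3 kinds every OVA array lay above every PBS array. WT mice read 3.55, 4.40, 4.68 and 4.26 with PBS and 6.21, 5.06, 4.33 and 3.47 with OVA. KitWsh_MCigeR mice read 4.45, 3.87 and 3.67 with PBS and 4.51, 3.21, 3.04 and 3.94 with OVA, with no OVA array over 5. Because its PBS arrays had only a bound, Clec4e was at least 1.42-fold higher with OVA in KitWsh_MC mice, taking the PBS group at log2 5. A second, dimmer probe set of Clec4e had a 36-array mean of 2.44. It differed by -0.01 in WT, 0.00 in KitWsh, 0.04 in KitWsh_MC, 0.19 in KitWsh_MCifngR and -1.08 in KitWsh_MCigeR mice. The rise of Clec4e thus rests on the probe set used.

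Clec7a was detected on all arrays. WT mice read 10.79, 10.92, 10.75 and 10.46 with PBS and 12.23, 13.29, 11.68 and 10.61 with OVA. KitWsh mice read 10.33, 10.09 and 9.72 with PBS and 11.40, 11.92, 10.65 and 11.98 with OVA. KitWsh_MC mice read 10.31, 9.99 and 10.34 with PBS and 11.80, 11.27, 11.58 and 12.19 with OVA. The groups did not overlap in KitWsh and KitWsh_MC mice, and in WT mice only array 4 fell within the PBS range. KitWsh_MCifngR mice read 10.12, 10.04 and 10.30 with PBS and 10.29, 10.67, 10.84 and 12.96 with OVA. KitWsh_MCigeR mice read 10.90, 9.27 and 10.41 with PBS and 11.01, 11.05, 11.14 and 11.26 with OVA, so that Clec7a was the only member whose OVA arrays all exceeded the PBS arrays in that kind.

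Clec5a was near the lowest levels on most arrays, with PBS values from 2.77 to 4.05. It exceeded log2 5 on 5 arrays, all from OVA mice: 6.22 and 6.14 in WT, 5.32 and 6.08 in KitWsh_MC and 6.55 in KitWsh_MCifngR. The other OVA arrays of those groups read 3.74 and 3.52 in WT, 3.48 and 4.63 in KitWsh_MC, and 3.24, 3.52 and 3.48 in KitWsh_MCifngR. Clec5a therefore differed between individual challenged mice within a kind.

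Clec4a2 (DCIR) lay in a narrow range in challenged KitWsh_MC mice, at 5.39, 6.08 and 5.75 with PBS and 7.35, 7.63, 7.52 and 7.45 with OVA. KitWsh_MCifngR mice read 6.06, 6.02 and 5.81 with PBS and 6.41, 6.77, 6.79 and 7.96 with OVA. The groups did not overlap in either kind. WT mice read 5.93, 6.03, 6.08 and 5.89 with PBS and 7.46, 6.79, 6.70 and 5.57 with OVA. KitWsh mice read 6.08, 5.80 and 5.42 with PBS and 6.49, 6.80, 5.66 and 6.38 with OVA. KitWsh_MCigeR mice read 6.38, 6.08 and 6.12 with PBS and 7.16, 6.34, 6.40 and 6.50 with OVA. A probe set shared by Clec4b1 and Clec4a2, left out because it has 2 symbols, was also higher with OVA in each kind, by 0.58 to 0.79. It differed by 0.61 in KitWsh_MC and 0.79 in KitWsh mice, where the probe set used differed by 1.75 and 0.57. A dimmer probe set of Clec4a2, at most 3.98 on any array, differed by 0.21 in KitWsh_MC and -0.03 in KitWsh_MCigeR mice. The larger rise of Clec4a2 in KitWsh_MC mice was thus seen only with the probe set used.

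Clec4a3 read 7.35, 7.42 and 7.51 in KitWsh PBS mice and 8.56, 9.23, 9.02 and 9.30 in KitWsh OVA mice, with no overlap. KitWsh_MCifngR mice read 7.26, 7.00 and 7.18 with PBS and 8.08, 8.27, 8.06 and 9.63 with OVA. KitWsh_MC mice read 8.16, 7.61 and 7.93 with PBS and 9.27, 8.27, 8.88 and 8.67 with OVA. All 3 kinds were clear of overlap. WT mice read 8.27, 8.67, 8.62 and 7.76 with PBS and 8.94, 9.01, 8.97 and 7.86 with OVA, and KitWsh_MCigeR mice read 8.36, 6.46 and 7.90 with PBS and 9.10, 8.05, 8.46 and 8.49 with OVA.

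**Figure D2:**
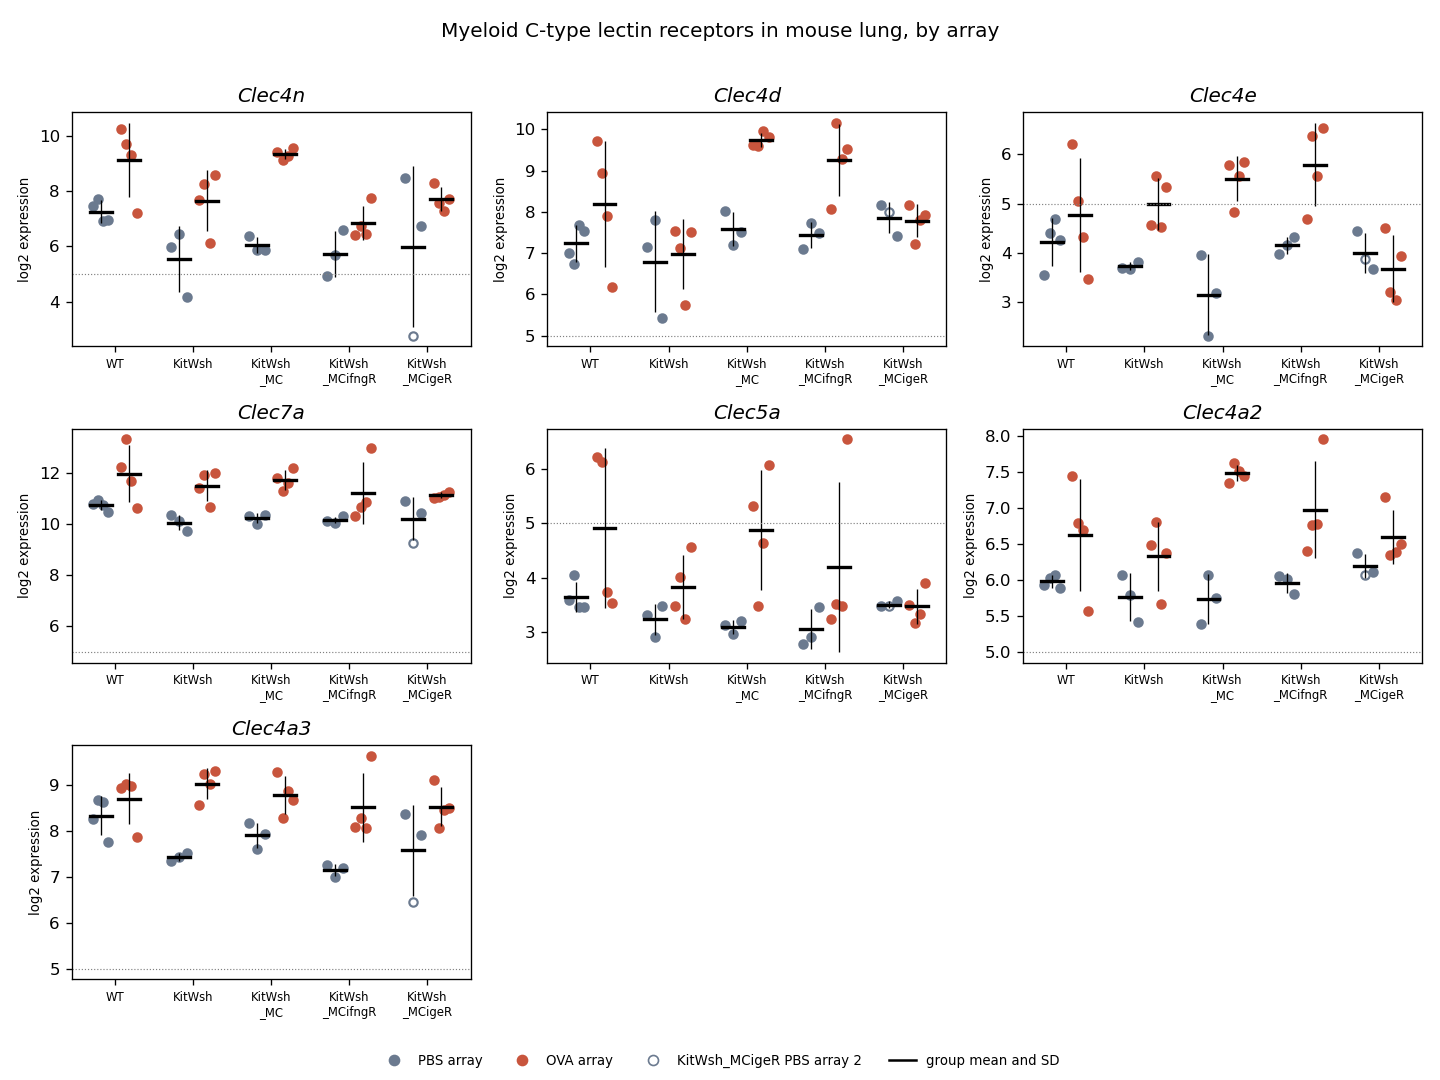
Log2 expression (y axis, separate scale per gene) of the 7 rising myeloid receptors on each array, by kind of mice, with group means and SDs; the dotted line marks log2 5. The KitWsh_MC OVA arrays of Clec4n (9.11 to 9.54) lie above all PBS arrays of that kind (5.87 to 6.39), and WT OVA array 4 is the lowest of its group in each panel.

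Taken by kind of mice, the calls fell mainly in KitWsh_MC mice. There 6 of 17 members were called with all arrays, against 6.52% of all genes, and 11 without the array that stood apart, against 20.5%. Clec4n (3.29 ± 0.81 SE, adjusted p = 0.0131), Clec4e (at least 1.42-fold, adjusted p = 0.00351), Clec4d (2.17 ± 0.58, adjusted p = 0.0219) and Clec4a2 (1.75 ± 0.33, adjusted p = 0.00159) rose with all arrays. Clec11a, a secreted growth factor of stem cells and bone, rose at least 1.70-fold (adjusted p = 0.0255), from 4.49 to 4.95 with PBS to 5.32 to 6.30 with OVA. Clec2i fell by 1.27 ± 0.38 (adjusted p = 0.0398). Each of these last 2 calls was lost in 5 of 8 fits without 1 array and in the fit of the compared groups alone, that of Clec11a also under median centring and that of Clec2i also under quantile normalisation, with averaged probe sets and with no filter. Without the array that stood apart, Clec5a, Clec7a (1.49) and Clec16a (0.96) were called higher too, and Clec14a (-0.98) and Clec1a (-1.29) lower. Both group means of Clec5a lay under log2 5, so no size is given for it. The count with all arrays dropped to 2, Clec4a2 and Clec4e, without KitWsh_MC PBS array 2 or 3. It was 13 without the 4 doubted arrays, against 2656 of 11599 genes. With the beta-actin difference as a covariate it was 12, a setting for which the share of all genes is not given. That difference ran from 2.33 to 3.41 in KitWsh_MC PBS mice and from 2.21 to 6.23 in KitWsh_MC OVA mice.

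In KitWsh mice without engraftment 1 member was called with all arrays, Clec4a3 (1.60 ± 0.38 SE, adjusted p = 0.0439), against 0.621% of all genes. No member was called without KitWsh OVA array 2, 3 or 4 or without any 1 KitWsh PBS array. Without the array that stood apart 3 members were called, against 6.55% of all genes: Clec4a3, Clec4n (2.11 ± 0.59, adjusted p = 0.0333) and Clec12b, which fell by 1.08 ± 0.29 (adjusted p = 0.0302). Without the 4 doubted arrays 4 members were called, against 1113 of 11599 genes.

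In WT mice limma called 0 of 17 members with all arrays, against 1.36% of all genes, although 7 had an unadjusted p under 0.05. Without the array that stood apart 2 were called, against 9.32% of all genes, namely Clec4n (1.86 ± 0.55, adjusted p = 0.0325) and Clec2d (0.67 ± 0.18, adjusted p = 0.0223). Leaving out WT OVA array 4 gave 3 calls, and leaving out WT PBS array 4 gave 1, with no share of all genes given for these fits. Leaving out the 4 doubted arrays gave 8, against 2192 of 11599 genes. WT OVA array 4 read lowest of its group for Clec4n, Clec4d, Clec4e, Clec7a, Clec5a, Clec4a2 and Clec4a3.

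Fewer calls were made in the other engrafted mice. In KitWsh_MCifngR mice limma called 0 members with all arrays, against 0.155% of all genes, with 5 members at an unadjusted p under 0.05. Without the array that stood apart it called 1, Clec4a3 (1.37 ± 0.32, adjusted p = 0.0356), against 0.776% of all genes. Without the 4 doubted arrays it also called 1, against 193 of 11599 genes. In KitWsh_MCigeR mice 1 member was called with all arrays, Clec2d (0.77 ± 0.24, adjusted p = 0.0458), against 19% of all genes. Without the array that stood apart, none of the members and none of the genes (0%) was called by limma, 0 members and 737 genes having an unadjusted p under 0.05. The differences in KitWsh_MCigeR mice were then -0.01 for Clec4d, 0.12 for Clec4n, 0.35 for Clec4a2, 0.39 for Clec4a3 and 0.46 for Clec7a. Clec4e and Clec5a stayed under log2 5 on every array of that kind. The count was 7 without KitWsh_MCigeR PBS array 1, 5 without array 3 and 0 without any 1 of the KitWsh_MCigeR OVA arrays. The share of all genes is not given for these fits, so the counts cannot be set against it.

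**Figure D3:**
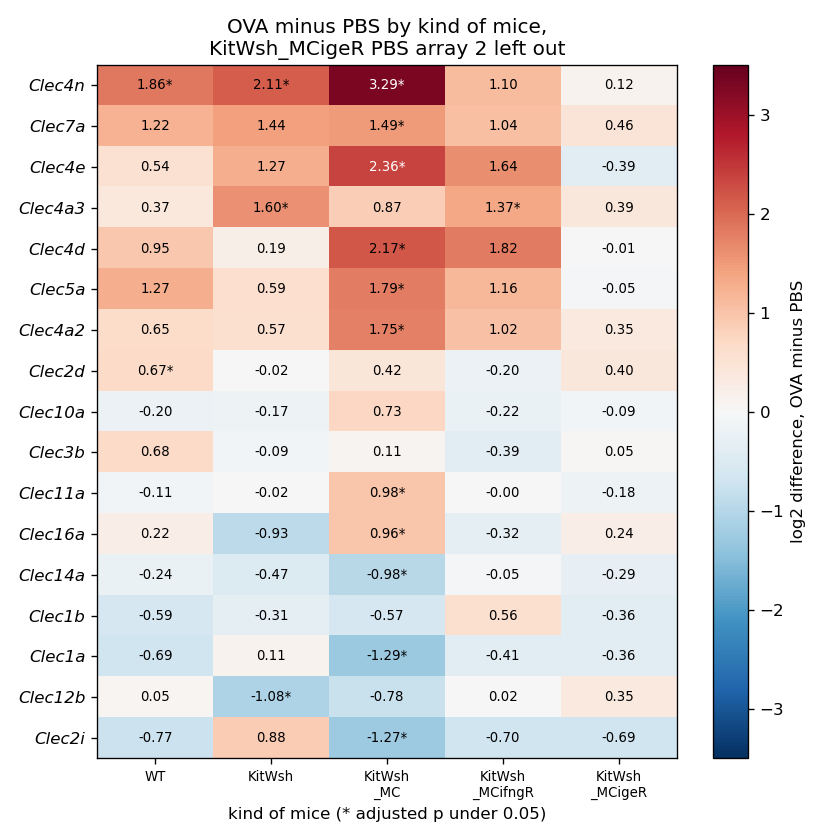
OVA minus PBS differences (log2, colour and printed value) of the 17 tested members in each kind of mice, with KitWsh_MCigeR PBS array 2 left out; stars mark adjusted p under 0.05, and the values of Clec4e and Clec5a are against PBS values under log2 5. KitWsh_MC mice hold 11 of the stars, and KitWsh_MCigeR mice hold 0.

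Read without a test, all OVA arrays exceeded all PBS arrays for 10 members in KitWsh_MC mice, where 12.6% of all genes did so. The counts were 4 in KitWsh_MCifngR (8.1% of all genes), 3 in KitWsh (7.53%), 1 in KitWsh_MCigeR (7.2%) and 0 in WT mice (7.6%). In the other direction, all OVA arrays lay below all PBS arrays for Clec14a, Clec1a and Clec1b in KitWsh_MC (3 members, 10% of all genes) and for Clec12b and Clec16a in KitWsh mice (2 members, 18%). The counts were 1 in WT (Clec2i, 11.9%), 1 in KitWsh_MCifngR (Clec1a, 5.37%) and 0 in KitWsh_MCigeR mice (3.04%). The WT counts include the doubted OVA array 4. On the other WT OVA arrays, Clec4n, Clec4d, Clec7a, Clec4a2 and Clec4a3 lay above all WT PBS arrays. Clec14a, Clec1a, Clec1b and Clec2i lay below all WT PBS arrays there. The share of all genes is not given for this reading. With fewer arrays groups separate more easily, so these members cannot be set against the shares above. Clec10a, the galactose-binding endocytic receptor MGL1 of macrophages, was among the 10, at 6.75, 6.95 and 6.87 with PBS and 7.51, 7.72, 7.65 and 7.45 with OVA. Its difference of 0.73 was not called. The same receptor had differences of -0.22 to -0.17 in WT, KitWsh and KitWsh_MCifngR mice.

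Whether the challenge effect itself differed between kinds was tested as an interaction. Between KitWsh and WT mice limma called 0 members with all arrays (0.00862% of all genes) and 0 without the array that stood apart (0.181%), with 5 members at an unadjusted p under 0.05 in both. Between KitWsh_MC and KitWsh mice 0 were called with all arrays (0.517%), 5 having an unadjusted p under 0.05, and 2 without the array that stood apart (5.53%). These were Clec16a, whose challenge effect was higher in KitWsh_MC mice by 1.89 ± 0.42 SE (adjusted p = 0.00948), and Clec2i, whose effect was lower there (-2.15 ± 0.53, adjusted p = 0.0177). Leaving out KitWsh_MC OVA array 3 instead gave 2 calls and leaving out KitWsh OVA array 1 gave 1. Between KitWsh_MCifngR and KitWsh_MC mice 0 were called with all arrays (0.0345%) and 0 without the array that stood apart (1.48%), 3 and 7 having an unadjusted p under 0.05. Between KitWsh_MCigeR and KitWsh_MC mice 0 were called with all arrays (0.293%) and 0 without the array that stood apart (0.0259%), 6 and 7 having an unadjusted p under 0.05. In this last comparison the count was 6 without KitWsh_MCigeR PBS array 1, 7 without PBS array 3 and 1 without OVA array 1. The fits without PBS array 1 or 3 kept the array that stood apart in a smaller PBS group. The share of all genes is not given where another single array was left out, so such counts cannot be set against it. With all arrays, calls made in some kinds and not in others are therefore not shown to differ between kinds.

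Challenged mice of different kinds were then compared directly. These comparisons share the KitWsh_MC OVA arrays, so their members' values are given side by side. Between KitWsh_MC and KitWsh OVA mice 2 members were called with all arrays, against 8.85% of all genes, and 8 without the array that stood apart, against 31.5%. Clec4d was 6.82-fold higher in KitWsh_MC mice (2.77 ± 0.54 SE, adjusted p = 0.00194), at 9.60 to 9.95 against 5.73 to 7.54, and its call held in each of the 9 left-out fits. Clec4a2 was 2.23-fold higher (1.16 ± 0.30, adjusted p = 0.0151) but lost its call when its probe sets were averaged (adjusted p = 0.165) and without KitWsh_MC OVA array 2 or KitWsh OVA array 3, each of which left 1 member called. The added calls were Clec4n (1.68), Clec16a (0.86), Clec10a (0.76) and Clec2d (0.54) as higher and Clec14a (-1.06) and Clec1a (-0.80) as lower in KitWsh_MC mice.

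Between KitWsh_MCifngR and KitWsh_MC OVA mice 2 members were called with all arrays, against 13.2% of all genes, and 7 without the array that stood apart, against 36.7%. Clec4n was 5.64-fold lower in KitWsh_MCifngR mice (-2.50 ± 0.75 SE, adjusted p = 0.0274), at 6.43 to 7.73 against 9.11 to 9.54. Clec12b was 2.00-fold higher (1.00 ± 0.31, adjusted p = 0.0286), at 8.45 to 8.81 against 7.28 to 8.13, a call lost under quantile normalisation and median centring (adjusted p up to 0.194). Over all genes tested, the median difference in this comparison was 0.18 as deposited, 0.06 after quantile normalisation and 0.00 after centring. The count was 0 or 1 when any 1 KitWsh_MCifngR OVA array or KitWsh_MC OVA array 1, 2 or 3 was left out. The added calls were Clec14a (0.97) and Clec1b (0.83) as higher and Clec2i (-0.89), Clec16a (-0.72) and Clec2d (-0.60) as lower.

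Between KitWsh_MCigeR and KitWsh_MC OVA mice 2 members were called with all arrays, against 2.93% of all genes, and 6 without the array that stood apart, against 21%. Clec4d was 3.91-fold lower in KitWsh_MCigeR mice (-1.97 ± 0.54 SE, adjusted p = 0.0411), at 7.22 to 8.17 against 9.60 to 9.95, a call lost with no filter on low values (adjusted p = 0.064). Clec4e differed by -1.83 ± 0.45 (adjusted p = 0.0241) and, with every KitWsh_MCigeR OVA array under log2 5, was at least 1.42-fold lower. The count was 0 or 1 when any 1 array of either group was left out. The added calls were Clec4n (-1.61), Clec4a2 (-0.89) and Clec10a (-0.75) as lower and Clec14a (0.85) as higher. The beta-actin difference of the OVA groups averaged 1.74 in KitWsh, 3.34 in KitWsh_MC, 3.38 in KitWsh_MCifngR and 1.95 in KitWsh_MCigeR mice. With it as a covariate 4, 5 and 3 members were called in the 3 comparisons, but the share of all genes is not given for that setting.

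Clec12b set the sash mice apart from WT mice. This inhibitory receptor carries a tyrosine-based inhibitory motif and recruits the phosphatases SHP-1 and SHP-2. It read 6.07, 6.46, 6.46 and 6.93 in WT PBS mice and 8.42, 8.57 and 8.54 in KitWsh PBS mice, a 4.10-fold difference (2.04 ± 0.33 SE, adjusted p = 0.000919; 0.000104 without the array that stood apart). KitWsh PBS against WT PBS called 1 member with all arrays, against 1.18% of all genes, and 2 without the array that stood apart, against 7.92%, the second being Clec2d (0.64 ± 0.19, adjusted p = 0.0381). Leaving out WT PBS array 4 also gave 2, with no share of all genes given for that fit. The call of Clec12b held under the 9 alternatives, with a difference of 1.91 to 2.21 among them, and in the 8 left-out fits. Clec12b was also high in the engrafted sash mice, at 7.88, 8.78 and 8.60 in KitWsh_MC PBS, 9.08, 8.71 and 8.10 in KitWsh_MCifngR PBS and 7.29, 8.75 and 7.74 in KitWsh_MCigeR PBS mice. The lowest of these 9 arrays exceeded the highest WT PBS array. WT OVA mice read 6.26, 5.99, 6.40 and 7.47, the last on the doubted array 4, whose Kit level lay in the sash range. KitWsh OVA mice read 7.77, 6.94, 7.66 and 7.38, below each of their 3 PBS arrays, a difference not called with all arrays (limma, adjusted p = 0.125) and called without the array that stood apart (adjusted p = 0.0302).

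Clec1b lies next to Clec12b on chromosome 6, and RefSeq's spans of Clec12b overlap those of Clec1b and Clec1a. The promoter windows place Clec12b on the minus strand and Clec1b on the plus strand. Whether their probe sets read any RNA in common was not tested. Clec1b averaged 7.47 ± 0.23 (SD, n = 4) in WT PBS and 8.21 ± 0.52 (n = 3) in KitWsh PBS mice, a difference that was not called. It read 7.40, 7.98, 7.68 and 7.77 in KitWsh_MC OVA and 8.73, 8.58, 8.85 and 8.02 in KitWsh_MCifngR OVA mice. Because CLEC-2 is a platelet receptor, platelet markers were read beside it. The 4 measured platelet genes averaged 5.91 to 6.98 on WT arrays and 6.83 to 8.53 on arrays of the 4 sash kinds. Gp9, Gp5, Gp6 and Treml1 stayed below log2 5 on every array. The part of these markers in the levels of Clec1b and Clec12b was not tested.

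The endothelial members lay lower with OVA in KitWsh_MC mice. Clec14a, a vascular protein that binds multimerin-2, read 11.16, 11.31 and 11.44 with PBS and 10.33, 10.07, 10.29 and 10.60 with OVA. Clec1a, a receptor for fungal melanin on endothelium, read 11.16, 11.12 and 11.32 with PBS and 10.05, 8.74, 10.78 and 10.06 with OVA. The 8.74 came from KitWsh_MC OVA array 2, whose beta-actin difference was 6.23. Neither pair of groups overlapped. Both differences, and the mean differences over kinds (Clec14a -0.41 ± 0.10 SE, adjusted p = 0.0039; Clec1a -0.53 ± 0.15, adjusted p = 0.0108), were called without the array that stood apart and not with all arrays. With all arrays the mean differences were -0.05 (adjusted p = 0.928) and -0.29 (adjusted p = 0.399). That array read 6.01 for Clec14a and 7.12 for Clec1a, against 11.19 and 11.73 and against 10.29 and 11.01 on the other KitWsh_MCigeR PBS arrays. A second probe set of Clec14a differed by -0.47 in KitWsh_MCigeR mice where the one used differed by 1.52 with all arrays. A second probe set of Clec1a was about as bright, with a 36-array mean of 10.285 against 10.293. It differed by -0.68 in KitWsh_MC and -0.17 in KitWsh_MCigeR mice, where the one used differed by -1.29 and 0.82 with all arrays. Of 11 endothelial markers, 0 were called by limma in the mean over kinds with all arrays, 1 having an unadjusted p under 0.05. Without the array that stood apart 2 were called lower, against 15.3% of all genes. The mean level of the 11 markers in KitWsh_MC mice was 10.59 to 10.93 on PBS arrays and 9.85 to 10.82 on OVA arrays. Whether they account for the level of either gene was not tested.

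**Figure D4:**
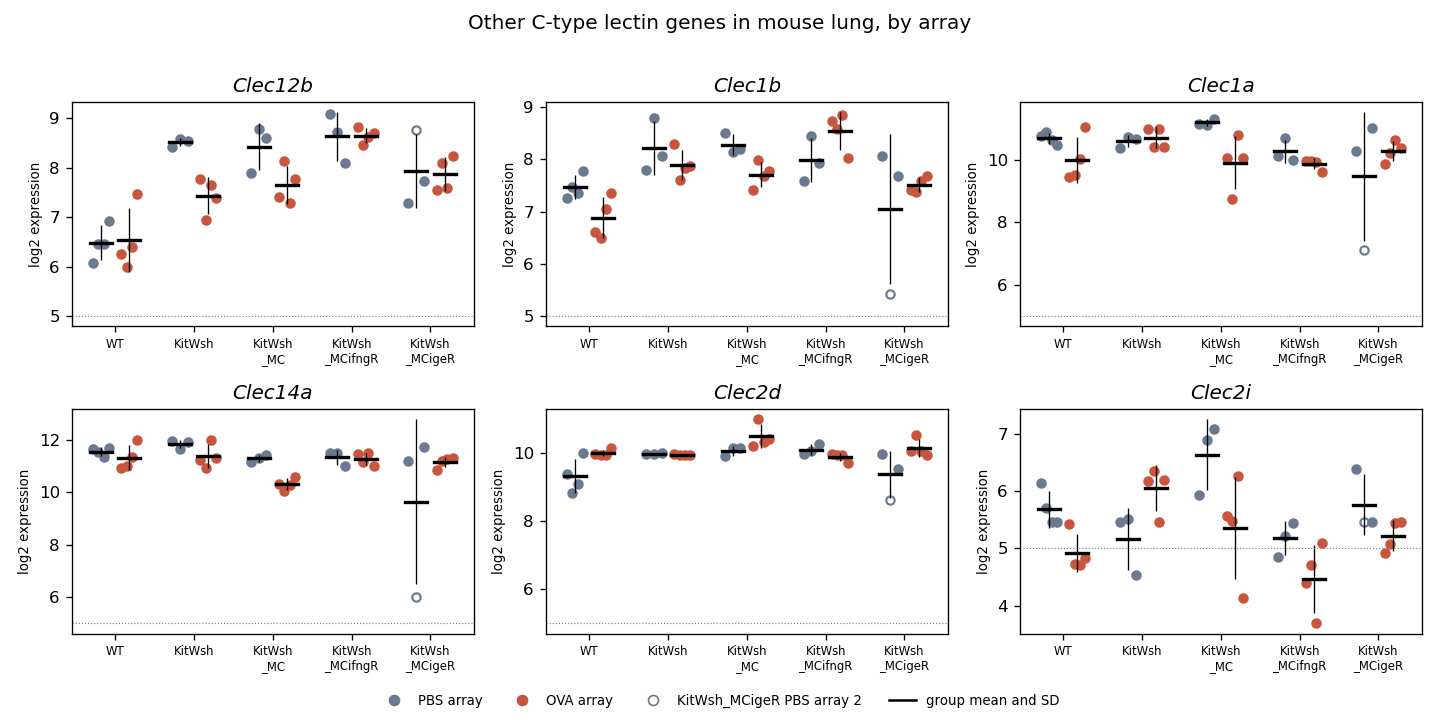
Log2 expression (y axis, separate scale per gene) on each array of Clec12b, Clec1b, Clec1a, Clec14a, Clec2d and Clec2i, by kind of mice, with group means and SDs; the open symbol is KitWsh_MCigeR PBS array 2. Clec12b lies at 6.07 to 6.93 in WT PBS mice and at 7.29 to 9.08 in PBS mice of the sash kinds.

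Clec2 genes encode surface ligands of natural killer cell receptors of the NKR-P1 family. Clec2d (Clr-b), their broadly expressed member, rose slightly in the mean over kinds (0.33 ± 0.11 SE, adjusted p = 0.0322), and its call was lost under median centring and without the 4 doubted arrays (adjusted p from 0.0121 to 0.0985 over the alternatives). The signs differed by kind, with Clec2d higher under OVA in 3 and lower in 2. It read 9.39, 8.84, 9.09 and 10.01 in WT PBS and 9.96, 9.95, 9.95 and 10.14 in WT OVA mice. Its values were stacked, since 15 of the 36 arrays lay within 0.02 of 9.96, and SDs in groups made of such values are smaller than elsewhere. Clec2i (Clr-g) had a mean difference of -0.48 ± 0.17 (adjusted p = 0.0481), and kept its call in 12 of the 36 fits that left out 1 array. It read 5.93, 6.89 and 7.09 in KitWsh_MC PBS and 5.57, 5.48, 6.26 and 4.14 in KitWsh_MC OVA mice. KitWsh mice ran the opposite way, at 5.45, 5.51 and 4.54 with PBS and 6.18, 6.36, 5.46 and 6.20 with OVA. A second, dimmer probe set of Clec2i differed by 0.31 in KitWsh_MC mice, opposite in sign to the one used. Of 5 natural killer markers tested, 1 was called higher and 1 lower in the mean over kinds, against 8.79% and 7.8% of all genes. Ncr1 and Prf1 were below log2 5 on every array.

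Between PBS mice of the KitWsh_MC and KitWsh kinds limma called 0 members with all arrays (1.2% of all genes), with 3 at an unadjusted p under 0.05, and 2 without the array that stood apart (12%). These were Clec2i, higher in KitWsh_MC mice by 1.47 ± 0.40 SE (adjusted p = 0.0175), and Clec16a, lower (-1.03 ± 0.32, adjusted p = 0.0308). Leaving out KitWsh_MC PBS array 1 gave 1, with no share of all genes given for that fit. Clec16a, an endosomal protein that takes part in mitochondrial turnover, read 7.03, 7.12 and 7.17 in KitWsh PBS and 6.47, 5.92, 6.16 and 6.18 in KitWsh OVA mice. In KitWsh_MC mice it read 6.20, 6.14 and 5.88 with PBS and 7.07, 8.10, 5.99 and 6.99 with OVA. The secreted protein Clec3b, tetranectin, was called in none of the 15 comparisons, its mean difference over kinds being 0.13 ± 0.15. It read 4.74 on 7 arrays, to within 0.02, a repeated low value.

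The 9 members under the filter had 36-array means of 2.19 to 4.25. Clec4f and Clec4g, lectins of liver macrophages and sinusoids, Clec18a, Clec2e, Clec2g, Clec2l and Clec2m exceeded log2 5 on no array. Clec2h did so on 1 array (5.07 in KitWsh_MC OVA) and Clec4b1 on 1 (5.07 in WT PBS). Of 7 liver markers 6, albumin among them, were likewise below log2 5 throughout.

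Some signalling genes of these receptors rose as well. In the mean over kinds, 8.79% of all genes were called higher and 7.8% lower. Of 14 adaptors and kinases tested, 6 were called higher and 0 lower. They included the adaptors Fcer1g (1.13 ± 0.29 SE, adjusted p = 0.0075) and Tyrobp, which encodes DAP12 (0.94 ± 0.22, adjusted p = 0.00464), the kinase Syk (0.69 ± 0.14, adjusted p = 0.00145) and the exchange factor Vav1 (0.97 ± 0.23, adjusted p = 0.00425). Fcer1g read 9.37 to 10.25 in KitWsh_MCigeR OVA and 9.07 to 10.74 in KitWsh_MC OVA mice. The position of its probe set relative to the deleted stretch of the FcεRIγ-/- allele is not stated in the labels, so this level does not check the label. Of 4 inhibitory phosphatases, Inpp5d (SHIP-1) was called higher (0.38 ± 0.10, adjusted p = 0.00728). Of 10 inflammatory target genes of the Syk and Card9 route, 4 were called higher, namely the chemokines Ccl4 (1.04), Ccl3 (1.27) and Cxcl1 (1.15) and the cytokine Il6 (0.80). Of 9 ligands and partners of these receptors 0 were called by limma, 3 having an unadjusted p under 0.05, among them Mmrn2, the multimerin that binds Clec14a (adjusted p = 0.0546). Of 28 other genes with a C-type lectin domain, 8 were called higher and 3 lower. The scavenger receptor Olr1 (1.34 ± 0.22, adjusted p = 0.000194) and the endocytic receptor Ly75 (0.68 ± 0.14, adjusted p = 0.00134) rose, and the asialoglycoprotein receptor subunit Asgr1 (-1.32 ± 0.15, adjusted p = 3.28e-06) and the soluble collectin Colec11 (-1.07 ± 0.20, adjusted p = 0.000616) fell.

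Macrophage markers rose alongside the receptors. In whole lung, more cells of a type and more RNA per cell cannot be told apart. Over all genes tested, 8.79% were called higher and 7.8% lower in the mean over kinds. Of 13 markers of monocytes and recruited macrophages, 8 were called higher and 1 lower. Their mean level was 7.99 to 8.17 on WT PBS and 7.91 to 9.59 on WT OVA arrays, and 7.83 to 7.89 on KitWsh_MC PBS and 8.25 to 9.57 on KitWsh_MC OVA arrays. In KitWsh_MCigeR mice it was 6.68 to 8.79 on PBS and 8.58 to 9.18 on OVA arrays. Of 9 alveolar macrophage markers, Olr1 among them, 5 were called higher and 1 lower. Of 10 markers of type 2 conventional dendritic cells 2 were called higher and 0 lower. Of 10 neutrophil markers 1 was called higher and 1 lower, near the shares of all genes. The part of each cell type in the receptor levels was not tested.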

How the data were processed

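Lung RNA of 36 mice was measured on 1-colour Affymetrix arrays of the whole mouse genome. The deposited values are log2 intensities of 45101 probe sets that the authors made with GCRMA, a method that corrects background by probe sequence, normalises arrays and summarises probe sets, per the submitters' processing notes, which name no version. Arrays carry no read depth, and their number limits the precision. Groups were taken from the labels, and replicate numbers only name arrays. Of the probe sets, 34945 had 1 gene symbol, 932 several and 9224 none, and each gene was read from its probe set of highest mean. Genes over log2 5 on at least 3 arrays were fitted with limma 3.58.1 in R 4.3.3 (lmFit, eBayes, 10 group means, 26 residual degrees of freedom), with Benjamini-Hochberg adjustment over 11599 genes in each of 15 comparisons. The fit was checked on simulated data. Members, roles, gene lists and tests were chosen with earlier results of these data known. Members called in any comparison, the 8 with the largest mean difference and, from each gene list, up to 4 genes of smallest p plus Fcer1g and Tyrobp are named. Alternatives were quantile normalisation, median centring, averaged probe sets per gene, no filter or a filter at log2 6, array weights, the beta-actin difference as covariate, only the compared groups, and fits without 1 array or 4 arrays.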

Additional observations from a re-analysis of the deposited data

Results flagged for a closer look

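In groups of 4 arrays, 8 of 102 member and group pairs held an array far from the other 3 by Dixon's criterion, which chance meets in about 1 in 20 groups. WT OVA array 4, whose labels are in doubt, read 7.86 for Clec4a3 (others 8.94 to 9.01) and 10.14 for Clec2d (others 9.949 to 9.957). KitWsh_MCifngR OVA array 4 read 9.63 for Clec4a3 (others 8.06 to 8.27), 6.55 for Clec5a (others 3.24 to 3.52), 9.61 for Clec1a (others 9.93 to 9.98) and 9.71 for Clec2d (others 9.949 to 9.964). Clec2i read 5.42 on WT OVA array 1 (others 4.71 to 4.83), and Clec3b read 4.88 on KitWsh_MCifngR OVA array 2, where the others all read 4.74. The gaps of Clec2d and Clec3b arise beside other arrays that hold nearly the same value.

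Challenge effects differed between kinds for 2 members, called without KitWsh_MCigeR PBS array 2 and not with all arrays. The effect on Clec16a was higher in KitWsh_MC than in KitWsh mice by 1.89 (limma, adjusted p = 0.00948), and that on Clec2i was lower, with a difference of -2.15 (adjusted p = 0.0177). Over the alternatives the adjusted p of the first ran from 0.000563 to 0.0749 and that of the second from 0.000592 to 0.158.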

How the results depend on the processing

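The calls of Clec4n, Clec7a, Clec4e, Clec4d, Clec5a, Clec4a2 and Clec4a3 in the mean over kinds held under the alternatives run. Clec4e did not pass the filter when its probe sets were averaged, so its call could not be checked that way. The mean over kinds has no fit of fewer groups. Counts of members called by limma moved by more than 1.5 times as follows. Without the 4 doubted arrays they were 8 in WT, 4 in KitWsh, 13 in KitWsh_MC, 1 in KitWsh_MCifngR and 0 in KitWsh_MCigeR mice, 3 for the interaction of KitWsh_MC with KitWsh, 8, 5 and 6 for KitWsh_MC against KitWsh, KitWsh_MCifngR against KitWsh_MC and KitWsh_MCigeR against KitWsh_MC among OVA mice, and 5 and 2 for KitWsh against WT and KitWsh_MC against KitWsh among PBS mice. Of 11599 genes, 2192, 1113, 2656, 193 and 0 were called in those kinds and 799 for that interaction. In the same order, 3928, 4028 and 2677 genes were called in OVA mice and 1101 and 1526 in PBS mice. No share of all genes is given for the settings below or for fits without 1 array, that of KitWsh_MCigeR PBS array 2 aside. With array weights, which gave the array that stood apart a weight of 0.0088 and KitWsh_MC OVA array 2 a weight of 0.132, the member counts were in the same order 12, 9, 14, 7 and 0, then 6, 3, 5 and 6 for the interactions of KitWsh with WT, KitWsh_MC with KitWsh, KitWsh_MCifngR with KitWsh_MC and KitWsh_MCigeR with KitWsh_MC, then 4, 9 and 5 in OVA mice and 8 and 5 in PBS mice. With the beta-actin covariate they were 2 in KitWsh, 12 in KitWsh_MC and 0 in KitWsh_MCigeR mice, 2 for KitWsh_MC with KitWsh, 4 and 5 in the first 2 OVA comparisons and 1 for KitWsh_MC against KitWsh with PBS. With only the compared groups they were 1 in WT, 5 in KitWsh and 0 in KitWsh_MCigeR mice, 2 for KitWsh with WT, 4 for KitWsh_MCigeR against KitWsh_MC, and 4 and 5 in PBS mice. The KitWsh_MCigeR count was also 0 under quantile normalisation, median centring, the probe set mean and no filter. Quantile normalisation gave 1 for KitWsh_MC with KitWsh, median centring 1 for KitWsh_MCigeR with KitWsh_MC, and the probe set mean and no filter 1 each for KitWsh_MCigeR against KitWsh_MC. The cause was not tested.

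Leaving out 1 array at a time gave 0 to 3 in WT, 0 to 3 in KitWsh, 2 to 11 in KitWsh_MC, 0 to 1 in KitWsh_MCifngR and 0 to 7 in KitWsh_MCigeR mice, and 7 to 11 for the mean over kinds. It gave 0 to 2 and 0 to 7 for the interactions of KitWsh_MC with KitWsh and KitWsh_MCigeR with KitWsh_MC, 1 to 8, 0 to 7 and 0 to 6 in OVA mice, and 1 to 2 and 0 to 2 in PBS mice. The mean difference of Clec14a ran from -0.41 to 0.16 in these fits. The median of all genes moved with scaling in KitWsh_MCigeR mice, from 0.38 as deposited to 0.09 after quantile normalisation and -0.13 after centring, and Clec2d, the member called there, is to be read against that shift. No paired analysis was possible because the replicate numbers follow accession order and tie no mice across groups.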
